A study of Homo sapiens with 8 samples.

Results

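The collagen chain genes are the protein-coding genes whose symbol is COL, a number, the letter A and a number, each coding for one chain of a collagen trimer. The rule used names only and no measured value, and it found 44 of the 60617 genes in the count table. Of these, 22 had at least 10 counts in 2 or more of the 8 libraries, namely COL17A1, COL4A2, COL4A1, COL8A1, COL4A6, COL7A1, COL4A5, COL12A1, COL1A1, COL5A2, COL6A3, COL22A1, COL16A1, COL4A4, COL13A1, COL9A2, COL18A1, COL5A3, COL28A1, COL27A1, COL1A2 and COL4A3. The RNA came from MCF-10A, an established human breast epithelial cell line that does not form tumours. Its cells were grown in one medium with horse serum, epidermal growth factor, hydrocortisone, insulin and cholera toxin. The 4 groups were Empty untreated, Empty JG-98, NeuT untreated and NeuT JG-98, with 2 libraries each. JG-98 inhibits Hsp70 chaperones and was given at 1 µM for 12 h. The stated aim was to compare the sensitivity of transformed cells to this compound. The labels do not say what the NeuT cells carry, how either line was made or whether it is a single clone, and no age or passage is given. Each line was present once, so whatever else differs between the lines cannot be told apart from the name they carry. Nothing in the labels says that replicates came from separate cultures, so p-values measure the spread between these libraries, which may be technical.

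A collagen is a trimer of chains that wind around each other in a triple helix, which needs a glycine in each Gly-X-Y triplet of its sequence. In epithelia, type IV chains form the sheet-like network of the basement membrane, type VII forms the anchoring fibrils below it, and type XVII is a membrane-spanning collagen of the hemidesmosomes that hold the cell to it. Fibrillar collagens, the FACIT collagens that sit on fibrils, and type VI microfibrils are made mostly by fibroblasts and other connective tissue cells.

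Total counts were 37341458 in Empty JG-98 replicate 1 and 55050996 to 56861971 in the other libraries. A count of 0 leaves room for 3 counts, or 0.0511 to 0.0787 CPM (counts relative to the TMM-scaled library size), and that limit covers counting error only. Chi-square per gene between the replicates of a group was 22.0 in NeuT JG-98 and 4.52 to 8.20 in the other groups, above sampling noise in each. Between 58.5% and 60.9% of genes with 1 to 10 counts had an even count, so small counts below may step by 2. Of the 10 basal breast epithelial markers, none was at 0, and their summed level was 7512 to 7909 RPKM (CPM per kilobase of gene length) in Empty and 9465 to 10170 RPKM in NeuT. Of the 10 fibroblast markers, 4 had under 10 counts in every library, with TCF21 at 0, while FBLN1 had 4246 to 8747 counts, FAP 2703 to 5209, DCN 124 to 4189 and POSTN 290 to 1232. Of the 5 leukocyte markers, PTPRC, CD3E and CD68 had at most 4 counts, ITGAM had 5 to 28 and CD14 had 191 to 662.

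The glycine repeat is visible in the coding sequences, of which 4 are shown because COL17A1, COL4A2 and COL4A1 led the members in level and COL12A1 had the largest untreated difference of those lower in NeuT. Each line gives 54 bases, 5′ to 3′, of the gene's longest GENCODE 29 coding sequence, starting at the first codon of its longest repeat, with the glycine codons in capitals.
COL17A1: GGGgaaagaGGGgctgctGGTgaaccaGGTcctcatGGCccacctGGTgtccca
COL4A1: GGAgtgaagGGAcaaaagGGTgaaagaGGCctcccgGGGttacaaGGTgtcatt
COL4A2: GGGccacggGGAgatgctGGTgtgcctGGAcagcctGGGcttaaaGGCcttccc
COL12A1: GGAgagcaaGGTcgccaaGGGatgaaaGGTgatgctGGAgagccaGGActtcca
These stretches start at codon 644 of 1497 in COL17A1, codon 43 of 1669 in COL4A1, codon 782 of 1712 in COL4A2 and codon 2803 of 3063 in COL12A1. Every one of the 44 members held at least 1 run of 10 or more triplets that begin with glycine, and 51 of 19443 other protein-coding genes (0.262%) did. The longest run was 23 triplets in COL26A1 and 343 in COL3A1. Runs of this length took up 73.5% of the codons of COL4A1 and 66.1% of those of COL4A2, where many short runs are interrupted. They took up 23.2% of COL17A1 and 7.64% of COL12A1. The rest of each includes other domains and any shorter runs, which were not counted.

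The 3 pairs of type IV genes lie head to head, COL4A1 with COL4A2, COL4A3 with COL4A4, and COL4A5 with COL4A6. On GRCh38.p14, the RefSeq start sites of COL4A1 and COL4A2 are 127 bases apart and those of COL4A4 and COL4A3 are 419 bases apart. COL4A6 has start sites 380 and 1416 bases from that of COL4A5. The sequence between the most abundant pair is shown, as is the sequence upstream of COL17A1, the member with the highest level, both from RefSeq with motif matches in capitals.
COL4A1 to COL4A2, chr13:110307158-110307235, plus strand: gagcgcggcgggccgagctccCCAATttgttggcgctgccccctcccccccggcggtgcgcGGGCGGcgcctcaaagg
COL17A1, chr10:104085881-104086130, minus strand: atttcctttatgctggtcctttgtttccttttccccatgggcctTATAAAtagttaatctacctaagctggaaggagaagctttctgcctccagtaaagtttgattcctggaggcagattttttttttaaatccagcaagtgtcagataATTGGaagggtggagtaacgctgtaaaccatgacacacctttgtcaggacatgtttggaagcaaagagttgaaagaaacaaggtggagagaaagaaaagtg
The first stretch begins next to the COL4A1 start, lies in an intron of the COL4A2 gene model of the count table, and stops at that model's next exon. Counted from 1 at the left, it holds CCAAT at position 22 and GGGCGG at position 62. The second is the 250 bases before the COL17A1 start and overlaps no exon of that gene. It holds TATAAA at position 45 and, on the opposite strand, CCAAT at position 150, and it has no GGGCGG. In windows of 250 bases before a start, the 32 members with an entry have 44 of the 35116 windows, since some have several starts. GGGCGG on either strand was in 54.5% of the member windows and 42.6% of all windows. CCAAT was in 27.3% and 32%, and TATAAA in 18.2% and 10.7%. TGACTCA (4.2% of all windows) and TTGCATCA (0.772%) were in no member window. The matches in capitals do not overlap, and a match is a description of letters only.

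Levels between genes were compared per length. Of the 44 members, COL17A1 had the highest mean level over the 8 libraries, 76.0 RPKM, at the 97.4th percentile of protein-coding genes. COL4A2 followed with 12.6 RPKM, then COL4A1 with 7.06, COL8A1 with 6.03 and COL4A6 with 5.02 RPKM. COL7A1 was at 1.88 RPKM, COL4A5 at 0.989 and COL12A1 at 0.918 RPKM, and COL5A2 followed with 0.591 RPKM. COL17A1 was above COL4A2, and COL4A2 above COL4A1, with no overlap over the 8 libraries. COL4A1 overlapped COL8A1 in range, and COL8A1 overlapped COL4A6, although within each library they kept this order and COL4A1 and COL4A6 did not overlap. COL4A6 and COL7A1 did not overlap, nor did COL7A1 and COL4A5. From COL4A5 down to COL4A4 each gene overlapped the next, so the order of neighbours there is not resolved. Genes further apart could be told apart, since COL4A5 lay above COL5A2 and COL1A1 in every library, and both of these above COL16A1, COL6A3, COL9A2, COL13A1 and COL4A4.

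**Figure D1:**
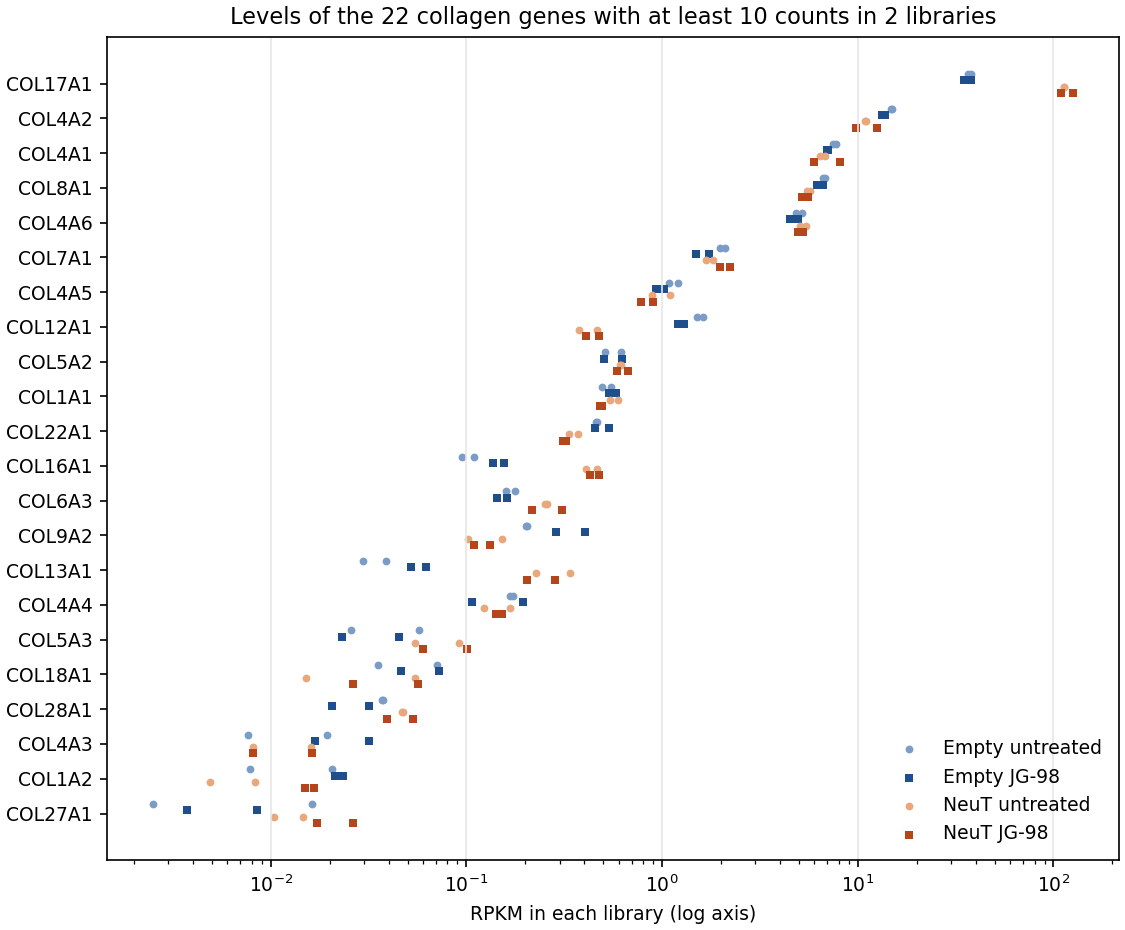
Level of the 22 collagen chain genes with at least 10 counts in 2 libraries, as RPKM on a log axis, one point per library, ordered by their mean. COL17A1 lies to the right of all others, and its NeuT libraries lie to the right of its Empty libraries, as do those of COL16A1, COL6A3 and COL13A1, while those of COL12A1 lie to the left.

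The other 22 members were at or near the floor. COL26A1, COL23A1 and COL9A1 had 0 counts in every library, 7 others had at most 3 (COL19A1, COL8A2, COL25A1, COL6A5, COL20A1, COL11A2 and COL5A1), and 10 had at most 4 to 9 (COL6A1, COL14A1, COL21A1, COL6A6, COL15A1, COL10A1, COL11A1, COL9A3, COL2A1 and COL24A1). COL3A1 and COL6A2 reached 10 and 11 counts in 1 library. None of the 22 exceeded 0.0382 RPKM in any library. Among them are COL9A1 and COL9A3, the cartilage partners of COL9A2, the chains of type II and type XI collagen, and COL3A1, the fibrillar collagen of loose connective tissue. COL11A2 lies in a stretch of chromosome 6 where 66.9% of 136 protein-coding genes had a mean of 3 counts or fewer, against 30.3% elsewhere, so its value is not read as absence.

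Several chains had far more counts than the partners they are known to assemble with. COL6A3 had 107 to 327 counts per library, while COL6A1 and COL6A2, the chains that every type VI trimer also needs, had 0 to 9 and 1 to 11 counts. Around COL6A1 and COL6A2, 44.9% and 45.8% of protein-coding neighbours within 2 megabases had a mean of 3 counts or fewer. COL5A2 had 174 to 264 counts, and COL5A1, the main chain of type V collagen, had 1 count in all libraries together. COL1A1 had 218 to 319 counts and COL1A2, its partner in type I collagen, had 3 to 14. Per length, COL1A1 lay 24.8 to 62.9 times above COL1A2 in Empty and 29.9 to 120.8 times above it in NeuT, a ratio set by the few counts of COL1A2. COL4A4 had 41 to 115 counts and COL4A3, its partner in the network with COL4A5, had 4 to 11, with 54.5% and 57.1% of their neighbours at a mean of 3 counts or fewer. These pairs were picked after their values were seen.

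The first comparison asks how the lines differed before treatment. COL17A1, COL16A1, COL13A1 and COL6A3 were higher in NeuT, and COL12A1, COL4A2 and COL8A1 were lower. Differences ran from a fitted 8.13-fold higher level for COL13A1 to a fitted 3.73-fold lower level for COL12A1. edgeR's quasi-likelihood test called (adjusted p under 0.05) 7 of the 21 members that passed its filter on low counts, 4 higher and 3 lower. Of all 17693 genes tested, 42% were called, 21.2% higher and 20.8% lower. At an unadjusted p under 0.05 there were 9 members and 48.7% of all genes. The share of collagen genes called was 33.3%, so it did not stand above that of all genes. The median log2 difference was -0.20 over the 21 and -0.02 over all genes tested, and the 23 members outside the test are not covered by either. In bulk RNA, fewer cells of a type and less RNA per cell cannot be told apart.

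COL17A1 (ENSG00000065618) lies on chromosome 10, 104031286 to 104085880. In untreated Empty its libraries had 263.5 and 256.6 CPM, and in untreated NeuT 791.9 and 787.2 CPM. Under JG-98 these were 244.6 and 265.9 CPM in Empty, and 764.1 and 877.4 CPM in NeuT. All 4 NeuT libraries lay above all 4 Empty libraries, and the lowest of them was at 764.1 CPM against a highest Empty value of 265.9 CPM. Group means without the compound were 260.1 ± 4.85 and 789.6 ± 3.32 CPM (SD, n = 2 each), a 3.04-fold difference, or 1.602 on the log2 scale (SE 0.065, edgeR adjusted p 6.8e-12). Under JG-98 the log2 difference was 1.68 (SE 0.065, edgeR adjusted p 3.7e-12).

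COL13A1, the other membrane-spanning collagen above the limit, is known for its place at the neuromuscular junction. It had 10 to 18 counts in the Empty libraries and 65 to 107 in the NeuT libraries. The groups did not overlap, and its mean of 48.8 counts is the lowest among the genes called before treatment. edgeR called it higher in NeuT without JG-98 (adjusted p 3.4e-06) and with it (adjusted p 1.12e-04). COL23A1 and COL25A1, the remaining membrane-spanning collagens, had at most 3 counts.

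Of the type IV chains, COL4A2 and COL4A1 form the network found in nearly all basement membranes. COL4A2 (ENSG00000134871, chromosome 13, 110305812 to 110513209) had 286.6 and 289.1 CPM in untreated Empty and 212.1 and 209.6 CPM in untreated NeuT. Its treated libraries had 257.1 and 264.4 CPM in Empty and 189.1 and 240.7 CPM in NeuT. All NeuT libraries lay below all Empty ones, and the untreated log2 difference was -0.45 (SE 0.084, edgeR adjusted p 6.9e-04). COL4A1 (ENSG00000187498, chromosome 13, 110148963 to 110307157) was at 113.0 and 109.5 CPM in untreated Empty, and 99.6 and 94.2 CPM in untreated NeuT. Under the compound it had 101.8 and 103.0 CPM in Empty, and 87.5 and 119.0 CPM in NeuT, so the NeuT JG-98 libraries enclosed those of Empty. The untreated lines differed by -0.20 on the log2 scale (SE 0.11), which edgeR did not call (adjusted p 0.201). Without NeuT JG-98 replicate 1 or replicate 2 it was -0.18 with edgeR adjusted p of 0.00271 and 0.00286, and over the 18 alternatives adjusted p ran from 5.42e-04 to 0.514.

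COL4A5 and COL4A6, neighbours on the X chromosome that form a network of their own in some epithelial basement membranes, were not called between the lines. COL4A6 had 44.9 and 48.3 CPM in untreated Empty and 46.8 and 50.2 CPM in untreated NeuT. The treated libraries had 41.9 and 46.2 CPM in Empty and 46.2 and 48.5 CPM in NeuT. Its untreated ranges overlapped, and the lines differed by 0.06 on the log2 scale (SE 0.072, edgeR adjusted p 0.567). COL4A5 had 12.8 and 14.4 CPM in untreated Empty and 10.5 and 13.0 CPM in untreated NeuT. Under JG-98 its Empty libraries, at 11.1 and 12.1 CPM, lay above its NeuT libraries, at 10.7 and 9.27 CPM, and this was not called (edgeR adjusted p 0.163). COL4A4 was at 1.74 and 1.68 CPM in untreated Empty and at 1.68 and 1.24 CPM in untreated NeuT. Treated, it was at 1.08 and 1.96 CPM in Empty and at 1.54 and 1.43 CPM in NeuT. Its treated libraries overlapped between the lines, its untreated ones were adjacent, and it was not called (edgeR adjusted p 0.545 untreated).

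COL8A1 (chromosome 3, 99638475 to 99799226) codes for a short-chain collagen that forms hexagonal sheets. It had 62.8 and 63.9 CPM in untreated Empty and 53.4 and 52.0 CPM in untreated NeuT. Treated, it had 58.4 and 62.2 CPM in Empty and 48.6 and 52.5 CPM in NeuT. The Empty libraries were all higher, and the untreated log2 difference was small, -0.27 (SE 0.064, edgeR adjusted p 0.0030). Without NeuT untreated replicate 2 it was -0.23 and not called, at an edgeR adjusted p of 0.0619, with 8.85e-05 to 0.0619 over the alternatives. COL7A1 (chromosome 3, 48564073 to 48595267), the anchoring fibril chain, had 21.9 and 23.3 CPM in untreated Empty and 18.5 and 20.2 CPM in untreated NeuT. The difference of -0.22 on the log2 scale (SE 0.094) did not pass (edgeR adjusted p 0.067). It passed when scaled by total counts (-0.29, edgeR adjusted p 0.0201), with the replicate block (-0.22, 0.0353) and with only the 4 libraries compared (-0.22, 0.0198). It also passed without NeuT JG-98 replicate 1 or replicate 2 (-0.21 each, edgeR adjusted p 0.0468 and 0.0473), and the alternatives gave 0.0198 to 0.40.

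COL12A1 and COL16A1, both FACIT collagens, differed in opposite directions. COL12A1 (chromosome 6, 75084326 to 75206053), which binds along type I fibrils, had 20.1 and 18.9 CPM in untreated Empty, and 5.79 and 4.68 CPM in untreated NeuT. Under JG-98 it was at 15.0 and 16.1 CPM in Empty, and 5.09 and 5.96 CPM in NeuT. Every NeuT library was below 6 CPM and every Empty library at 15.0 CPM or above, and the untreated log2 difference was -1.90 (SE 0.12, edgeR adjusted p 1.1e-09). COL16A1 (chromosome 1, 31652263 to 31704319), a FACIT collagen of several connective tissues, went the other way. It had 0.881 and 1.02 CPM in untreated Empty and 3.77 and 4.29 CPM in untreated NeuT. Treated libraries had 1.44 and 1.26 CPM in Empty and 4.42 and 3.94 CPM in NeuT. The lines did not overlap, with 50 to 74 counts in Empty and 206 to 239 in NeuT, and the untreated log2 difference was 2.08 (SE 0.20, edgeR adjusted p 2.7e-07). An antisense gene covers 1.26% of its exonic bases. COL22A1 is known from tissue junctions such as those of muscle and tendon. It had 3.66 and 3.63 CPM in untreated Empty and 2.63 and 2.91 CPM in untreated NeuT. The gene was not called (edgeR adjusted p 0.072), except when scaled by total counts (-0.46, edgeR adjusted p 0.0368). With JG-98 its libraries had 3.57 and 4.23 CPM in Empty and 2.44 and 2.54 CPM in NeuT, so all NeuT libraries were lower. COL9A2, a chain of cartilage type IX collagen, had 48 to 71 counts in Empty and 23 to 35 in NeuT, and its untreated difference of -0.67 on the log2 scale was not called either (edgeR adjusted p 0.118).

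COL6A3 (chromosome 2, 237324003 to 237414375), the long chain of type VI collagen, had 3.47 and 3.12 CPM in untreated Empty, and 4.95 and 5.09 CPM in untreated NeuT. Treated, it was at 2.81 and 3.15 CPM in Empty, and 4.24 and 6.05 CPM in NeuT. The NeuT libraries were all higher, and the untreated log2 difference was 0.61 (SE 0.17, edgeR adjusted p 0.0098). The call was lost without Empty untreated replicate 2 (0.53, edgeR adjusted p 0.0867) and without NeuT untreated replicate 2 (0.60, edgeR adjusted p 0.0524), and adjusted p ran from 0.00135 to 0.0867 over the alternatives.

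Of the 11 fibrillar collagens, 5 were tested, and none was called between the lines without or with JG-98 (all genes 42% and 41.7%). The rest were at or near the floor. Counting the alternatives, COL5A3 was called under JG-98 in 1 of 18 fits. COL1A1 (chromosome 17, 50183289 to 50201632), the main chain of type I collagen, had 5.39 and 4.86 CPM in untreated Empty and 5.83 and 5.29 CPM in untreated NeuT. Under JG-98 its Empty libraries had 5.72 and 5.23 CPM and its NeuT libraries, both lower, 4.70 and 4.87 CPM (edgeR adjusted p 0.285). COL5A2 had 3.72 and 4.49 CPM in untreated Empty and 4.50 and 4.45 CPM in untreated NeuT. Treated, it was at 4.57 and 3.68 CPM in Empty and 4.31 and 4.89 CPM in NeuT. For both genes the untreated lines overlapped, and the 95% interval of the untreated log2 difference was -0.16 to 0.40 for COL1A1 and -0.21 to 0.46 for COL5A2. COL5A3, COL27A1 and COL1A2 had 2 to 37 counts, and differences of the size seen for COL6A3 were not detectable at that depth. COL18A1, the source of endostatin, had 7 to 36 counts, and the antisense gene SLC19A1 covers 18.5% of its exonic bases. COL28A1 had 8 to 14 counts in Empty and 14 to 19 in NeuT, and was not called in any comparison.

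**Figure D2:**
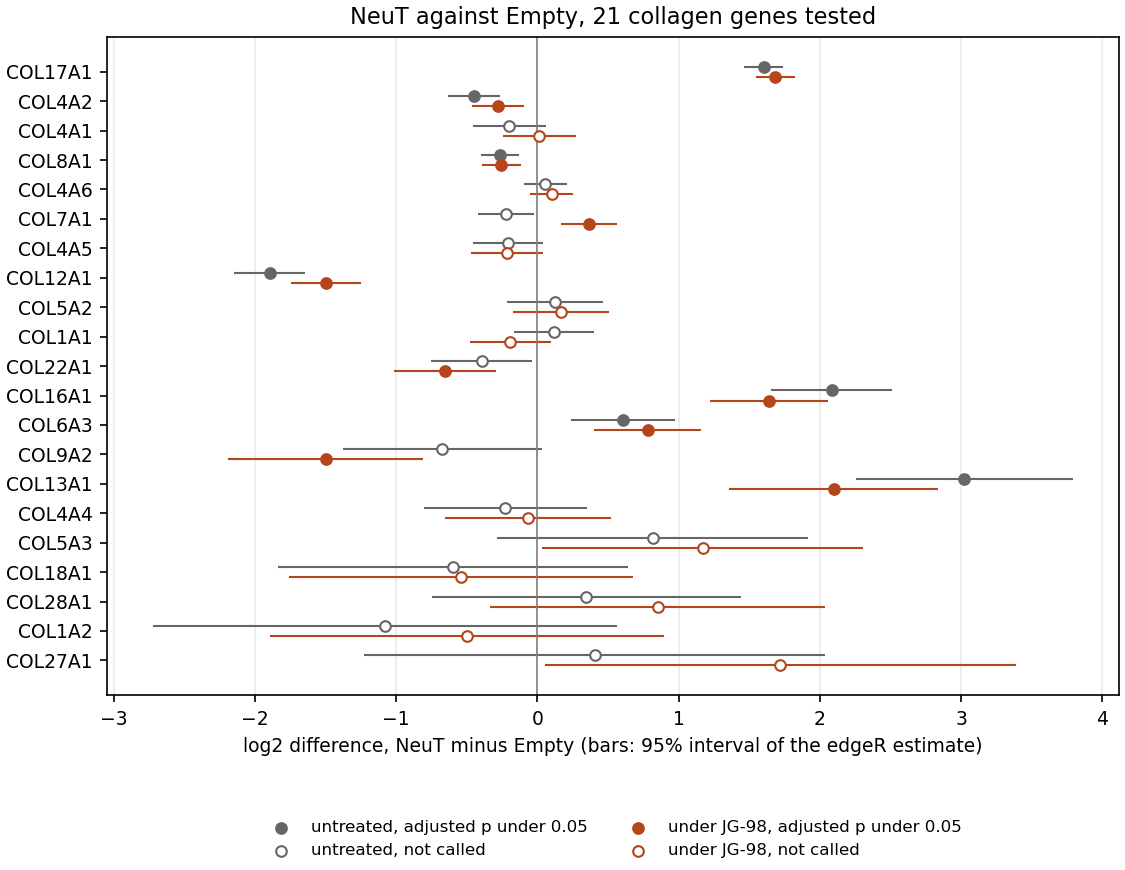
Log2 difference between NeuT and Empty for the 21 collagen chain genes tested, untreated in grey and under JG-98 in red-brown, with bars for the 95% interval of the edgeR estimate and filled points for an adjusted p under 0.05. COL17A1, COL16A1 and COL13A1 lie above 1 and COL12A1 below -1 in both, and the bars widen toward the low-count genes at the bottom.

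With JG-98 in both lines, the comparison of NeuT with Empty called 10 of the 21 collagen genes, 5 higher and 5 lower. Of all genes tested 41.7% were called, 21.7% higher and 20% lower, so the share of collagen genes, 47.6%, was near it. The median log2 difference was 0.01 over the 21 and 0.00 over all genes. Beside COL17A1 and COL13A1, the higher genes were COL16A1 with a log2 difference of 1.64 (SE 0.20), COL6A3 with 0.78 (SE 0.18) and COL7A1 with 0.37 (SE 0.095), with edgeR adjusted p of 3.6e-06, 0.0019 and 0.0049. The lower genes were COL12A1 with -1.497 (SE 0.12), COL22A1 with -0.65 (SE 0.17), COL4A2 with -0.28 (SE 0.084), COL8A1 with -0.26 (SE 0.065) and COL9A2 with -1.5 (SE 0.33). Their edgeR adjusted p were 2.2e-08, 0.0054, 0.016, 0.0042 and 0.0013. COL4A1 (0.01, SE 0.11, edgeR adjusted p 0.952) and COL4A6 (0.10, SE 0.072, edgeR adjusted p 0.285) were not called.

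The calls under JG-98 that rested on single libraries were these. COL4A2 did not pass without Empty JG-98 replicate 1 (-0.30, edgeR adjusted p 0.0638), Empty JG-98 replicate 2 (-0.26, 0.102) or NeuT JG-98 replicate 1 (-0.11, 0.103), within a range of 6.7e-08 to 0.103 over the alternatives. COL7A1 did not pass without Empty JG-98 replicate 1 (0.27, edgeR adjusted p 0.0784, range 2.75e-04 to 0.0784). COL8A1 (-0.21, edgeR adjusted p 0.054, range 5.26e-04 to 0.054) and COL22A1 (-0.52, 0.0741, range 0.00246 to 0.0741) did not pass without Empty JG-98 replicate 2. COL4A1 passed as higher in NeuT without NeuT JG-98 replicate 1 (0.22, edgeR adjusted p 0.00303) and as lower without NeuT JG-98 replicate 2 (-0.23, 0.00434), within 0.00303 to 0.992. The sign of its difference under JG-98 thus depended on which replicate was kept. A group left with 1 library has no spread of its own in these fits and is assumed to vary like the other groups, although NeuT JG-98 replicates differed most from each other, so these adjusted p may be too small.

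Over both conditions, 5 of the 21 collagen genes had all 4 NeuT libraries above all 4 Empty libraries, which were COL17A1, COL16A1, COL13A1, COL6A3 and COL28A1. A further 5 had them all below, which were COL12A1, COL4A2, COL8A1, COL22A1 and COL9A2. Of all genes tested, 23.3% were separated upward and 22.5% downward. The untreated and the JG-98 comparison use different libraries, but both are fitted with the same estimate of the spread.

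The make-up of the collagen RNA differed between the lines in the same way in all libraries. Summed over the 44 members, Empty libraries had 72.4 to 78.9 RPKM and NeuT libraries 141.3 to 163.5 RPKM. COL17A1 made up 46.8% to 49.4% of this sum in Empty and 76.5% to 77.4% in NeuT. The type IV chains made up 34.9% to 37.0% in Empty and 15.4% to 16.4% in NeuT, a share that falls as COL17A1 rises. COL17A1 lay 2.45 to 2.78 times above COL4A2 in Empty and 10.1 to 11.2 times above it in NeuT. Within the head-to-head pair, COL4A2 was 1.92 to 2.01 times COL4A1 in Empty and 1.54 to 1.69 times in NeuT, with no overlap. COL4A6 was 4.30 to 4.89 times COL4A5 in Empty and 4.92 to 6.69 times in NeuT. These ratios were chosen after the values were seen and carry no test.

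**Figure D3:**
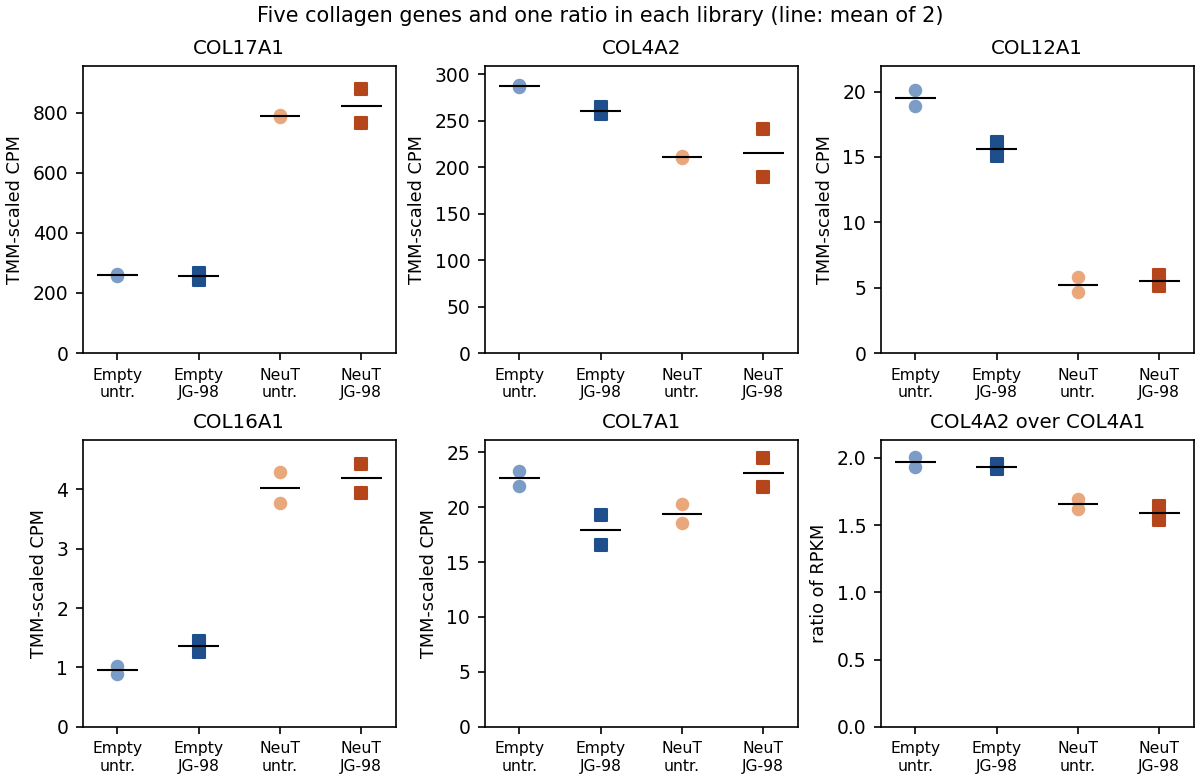
TMM-scaled CPM of COL17A1, COL4A2, COL12A1, COL16A1 and COL7A1, and the RPKM ratio of COL4A2 to COL4A1, with 1 point per library, a line at the mean of 2 and axes from 0. The lines separate in the first 4 genes and in the ratio, while in COL7A1 the JG-98 libraries lie below the untreated ones in Empty and above them in NeuT.

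The next comparisons ask what 12 h of JG-98 did in each line. No collagen gene was called in Empty or in NeuT by edgeR. At an unadjusted p under 0.05 there were 4 of 21 in Empty, namely COL7A1, COL12A1, COL9A2 and COL16A1. In NeuT there was 1 of 21, COL7A1. Of all genes, 9.83% in Empty and 16% in NeuT were under that limit. After adjustment, 0.339% of all genes were called in Empty (0.26% higher and 0.0791% lower) and 3.01% in NeuT (2.01% higher and 1.01% lower), and the 0 of 21 is read against these low shares. The smallest adjusted p among the members was 0.203 in Empty and 0.179 in NeuT. DESeq2 and limma-voom called none of the members in either line. In the authors' deposited tables, which hold the same 21 collagen genes for each line, none had an adjusted p under 0.05 either.

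For the genes with the highest levels the intervals were narrow. The log2 change of COL17A1 with JG-98 was -0.03 (SE 0.064, edgeR adjusted p 0.942) in Empty and 0.06 (SE 0.063, edgeR adjusted p 0.739) in NeuT, with 95% intervals of -0.16 to 0.11 and -0.08 to 0.19. For COL4A2 it was -0.14 (SE 0.084, edgeR adjusted p 0.616) and 0.03 (SE 0.084, edgeR adjusted p 0.921). COL4A1 was at -0.12 (SE 0.11, edgeR adjusted p 0.803) and 0.09 (SE 0.11, edgeR adjusted p 0.774). The values for COL8A1 were -0.07 (SE 0.064, edgeR adjusted p 0.780) and -0.06 (SE 0.065, edgeR adjusted p 0.723). Those for COL4A6 were -0.08 (SE 0.072, edgeR adjusted p 0.780) and -0.03 (SE 0.072, edgeR adjusted p 0.880). Among the 14 members with a mean of at least 50 counts, estimates ran from -0.33 to 0.50 in Empty and from -0.24 to 0.26 in NeuT. In NeuT the outcome depended on 1 library, since without NeuT JG-98 replicate 1 edgeR called COL4A1 (0.29, adjusted p 0.00109), COL4A2 (0.19, adjusted p 0.0151) and COL7A1 (0.33, adjusted p 0.0306) as higher. In that fit 11.4% of all genes were called, against 3.01% with the library, and the remaining NeuT JG-98 library is assumed to vary like the other groups. Over the alternatives their edgeR adjusted p reached 0.955, 0.986 and 0.608.

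COL7A1 is singled out after its values were seen. In Empty its libraries went from 21.9 and 23.3 CPM to 16.6 and 19.2 CPM with JG-98, and in NeuT from 18.5 and 20.2 CPM to 21.8 and 24.5 CPM. In neither line did treated and untreated libraries overlap, which was not particular to COL7A1. COL1A2 did not overlap in either line. Nor did COL4A2, COL4A1, COL8A1, COL4A5, COL12A1, COL16A1, COL13A1, COL9A2 and COL28A1 in Empty, or COL1A1, COL22A1 and COL27A1 in NeuT. The share of all genes without overlap was not counted. For COL7A1 the directions were opposite. The log2 change was -0.33 (SE 0.095, edgeR adjusted p 0.203) in Empty and 0.26 (SE 0.094, edgeR adjusted p 0.179) in NeuT. The difference between these changes, tested as the interaction of line and JG-98, was 0.59 (SE 0.13) and was not called (edgeR adjusted p 0.312). It passed without the low-count filter (0.59, edgeR adjusted p 0.00245) and without NeuT JG-98 replicate 1 (0.66, 0.00412), and the alternatives reached 0.966. The Empty change passed without the filter (-0.34, edgeR adjusted p 0.0279) and without NeuT JG-98 replicate 1 or replicate 2 (-0.33, 0.0416 and 0.0424), and the alternatives reached 0.83.

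The interaction was called for none of the 21 members, and for 0.00565% of all genes. At an unadjusted p under 0.05 it was met by 2 members, COL7A1 and COL12A1, and by 7.79% of all genes. For the genes with the highest levels it was 0.08 (SE 0.090) for COL17A1, 0.17 (SE 0.12) for COL4A2, 0.21 (SE 0.16) for COL4A1, 0.01 (SE 0.092) for COL8A1 and 0.05 (SE 0.10) for COL4A6, with edgeR adjusted p of 0.753 to 0.989. Without NeuT JG-98 replicate 1 the interaction was called for COL4A1 (0.41, edgeR adjusted p 0.00208) and COL4A2 (0.33, 0.00449) as well as COL7A1, while 4.16% of all genes were called in place of 0.00565%. Over the alternatives the first 2 reached 0.989 and 0.974. The JG-98 comparisons share their untreated libraries with the line comparisons, so likeness between them carries no added weight.

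**Figure D4:**
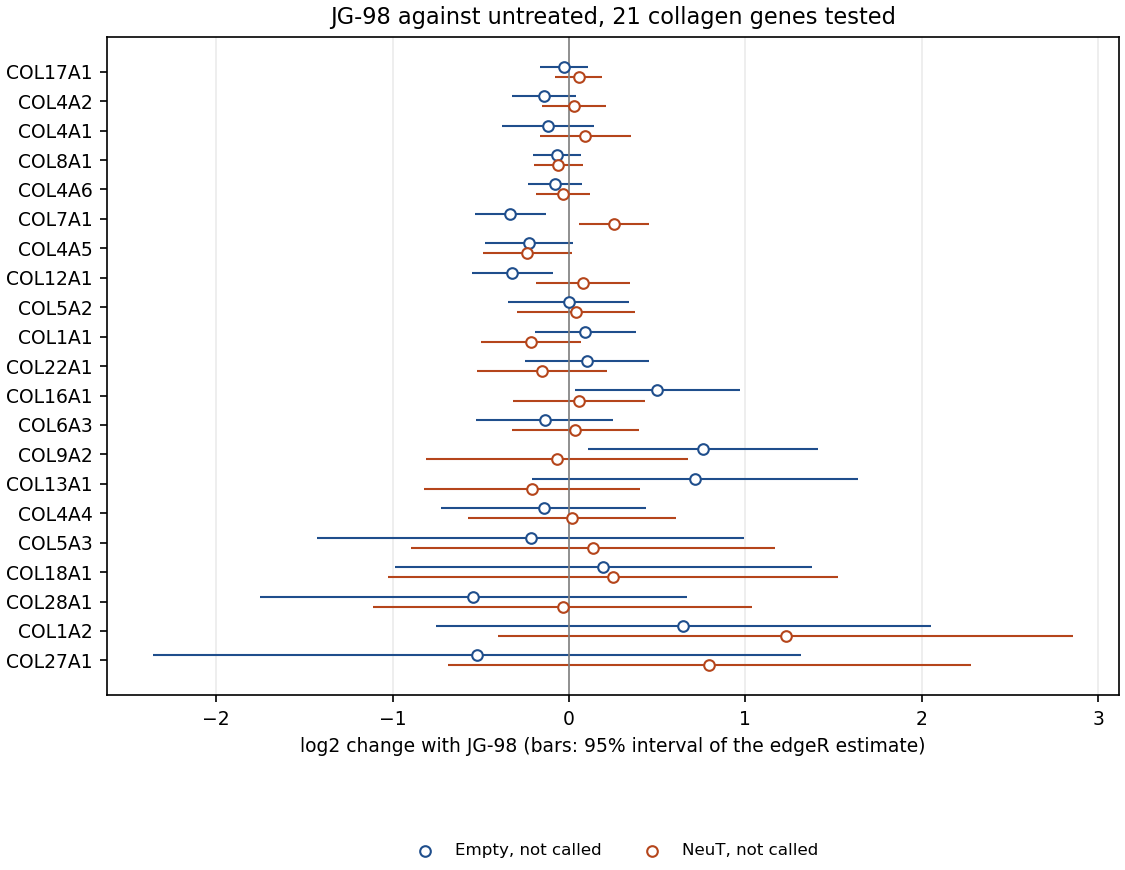
Log2 change with JG-98 for the 21 collagen chain genes tested, Empty in blue and NeuT in red-brown, with bars for the 95% interval of the edgeR estimate. All points are open because none had an adjusted p under 0.05, and COL7A1 has intervals on opposite sides of 0 in the 2 lines.

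Genes that act on collagen chains were counted from lists made for the pathway. Beside each count of list genes between the lines stand the shares of all genes, 21.2% higher and 20.8% lower without JG-98, and 21.7% higher and 20% lower with it. One list holds the enzymes that hydroxylate and glycosylate the chains, together with their partners. Of its genes, edgeR called 6 of 13 tested higher and 1 lower in NeuT without JG-98 (all genes 21.2% and 20.8%). PLOD1, a lysyl hydroxylase, was higher by 0.98 (SE 0.052) and P3H4, a cofactor of that modification, by 1.06 (SE 0.12), with edgeR adjusted p of 1.4e-10 and 1.4e-06. P4HA2, a prolyl hydroxylase subunit, was higher by 0.42 (SE 0.056, edgeR adjusted p 1.2e-05). CRTAP, which works with prolyl 3-hydroxylase, was lower, at -0.19 (SE 0.052, edgeR adjusted p 0.0076). It lost that call without Empty untreated replicate 1 (-0.17) or either NeuT untreated replicate (-0.18 and -0.17), with edgeR adjusted p of 0.0797 to 0.0912 against 2.53e-04 at the lowest over the alternatives. Under JG-98 the count was again 6 higher and 1 lower (all genes 21.7% and 20%), led by P4HA1 with 1.00 (SE 0.076, edgeR adjusted p 1.5e-08) and PLOD1 with 0.94 (SE 0.052, edgeR adjusted p 2.5e-10). P3H1, a prolyl 3-hydroxylase, was the smallest of the higher ones (0.40, SE 0.075, edgeR adjusted p 3.3e-04). CRTAP was again lower (-0.15, SE 0.052, edgeR adjusted p 0.028). That call was lost without the low-count filter (-0.14, edgeR adjusted p 0.0861) and with only the 4 libraries compared (-0.15, 0.127). It was also lost without either replicate of Empty untreated, Empty JG-98 or NeuT untreated (-0.16 to -0.14). With JG-98, PLOD2, the lysyl hydroxylase of telopeptides, was lower than untreated by -0.37 (SE 0.057, edgeR adjusted p 0.0073) in Empty and -0.28 (SE 0.056, edgeR adjusted p 0.0095) in NeuT. Without any 1 of the 4 Empty libraries the first call was lost, at changes of -0.39 to -0.35. The second was lost without either NeuT untreated library (-0.285 and -0.295) and with only the 4 libraries compared (-0.28, edgeR adjusted p 0.0813). Over the alternatives adjusted p was 1.53e-07 at the lowest for the first call and 1.29e-05 for the second.

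Among genes of folding and export, SERPINH1, the collagen chaperone Hsp47, was lower in NeuT by -0.27 (SE 0.054, edgeR adjusted p 6.1e-04) without JG-98 and by -0.31 (SE 0.054, edgeR adjusted p 1.7e-04) with it. Of the 9 tested, 4 were higher and 1 lower without JG-98 (all genes 21.2% and 20.8%), and 6 higher and 1 lower with it (all genes 21.7% and 20%). FKBP10, a prolyl isomerase named here after its values were seen because its mean was 7.25 counts, was the largest of the 6 (2.89, SE 0.93, edgeR adjusted p 0.019). Without JG-98 it was not called (1.96, SE 0.83, edgeR adjusted p 0.067). It was called there by limma-voom (1.91, adjusted p 0.0468) and by edgeR with only the 4 libraries compared (1.97, adjusted p 0.0418). The FKBP10 call was lost without Empty JG-98 replicate 1 (2.19, edgeR adjusted p 0.127) and without NeuT JG-98 replicate 1 or replicate 2 (0.0506 and 0.0865), the alternatives giving 0.0125 to 0.127. FKBP10 was at 0 counts in Empty JG-98 replicate 1. Without Empty JG-98 replicate 2 its fitted difference was therefore against 0 counts and came to 6.68, a value that depends on the prior count and is no measure of size. FKBP14, another prolyl isomerase, was higher by 0.39 and 0.38 (SE 0.087 and 0.088), and KLHL12, which acts in the export of large collagen cargo, by 0.33 and 0.52 (SE 0.073 each), with edgeR adjusted p of at most 0.0021. SEC23A, a coat protein of export vesicles, was just past the threshold without JG-98 (0.14, SE 0.053, edgeR adjusted p 0.0496) and lost the call under 10 of 18 alternatives, among them without either replicate of Empty untreated, Empty JG-98 or NeuT untreated (adjusted p up to 0.337). TMED10, a cargo receptor, was higher under JG-98 (0.18, SE 0.055, edgeR adjusted p 0.016). That call was lost with total counts (0.10, edgeR adjusted p 0.16) and with only the 4 libraries compared (0.18, 0.0813). It was also lost without Empty JG-98 replicate 2 (0.14) or NeuT JG-98 replicate 1 (0.13), and the lowest adjusted p over the alternatives was 9.07e-04. With JG-98 in NeuT, MIA2 (0.32, SE 0.060, edgeR adjusted p 0.0061) and KLHL12 (0.31, SE 0.072, edgeR adjusted p 0.025) rose. No other of the 9 genes tested was called, and of all genes 2.01% were higher and 1.01% lower. Without NeuT untreated replicate 1 or replicate 2, MIA2 had edgeR adjusted p of 0.0913 and 0.164 and KLHL12 of 0.145 and 0.346, against 2.38e-04 and 0.00259 at the lowest over the alternatives. KLHL12 also lost its call with only the 4 libraries compared (0.31, edgeR adjusted p 0.101). The same held without either Empty untreated library (0.31 each) or NeuT JG-98 replicate 2 (0.24).

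Of the genes for trimming procollagen and crosslinking collagen, enzymes and their helpers, 3 of 10 tested were higher and 3 lower in NeuT without JG-98 (all genes 21.2% and 20.8%). Under JG-98 the counts were 2 and 4 (all genes 21.7% and 20%). LOXL2, a lysyl oxidase that crosslinks type IV collagen, was higher by 1.36 (SE 0.067, edgeR adjusted p 6.4e-11), and LOXL3 was lower by -1.29 (SE 0.23, edgeR adjusted p 2.7e-04). ADAMTS14, a procollagen N-proteinase, was higher by 0.91 (SE 0.20, edgeR adjusted p 0.0012), and TLL1, a procollagen C-proteinase, lower by -1.04 (SE 0.25, edgeR adjusted p 0.0026). Without Empty untreated replicate 2 the TLL1 value was -0.82 (edgeR adjusted p 0.0519, range 4.46e-04 to 0.0519). Under JG-98, LOXL2 was higher by 1.47 (SE 0.068) and LOXL3 lower by -0.87 (SE 0.23), with edgeR adjusted p of 2.7e-11 and 0.0060. LOX was higher by 0.19 (SE 0.061, edgeR adjusted p 0.021) and TLL1 lower by -0.81 (SE 0.26, edgeR adjusted p 0.017). Calls were lost for LOXL3 without Empty JG-98 replicate 1 or NeuT JG-98 replicate 2, and for TLL1 without replicate 2 of either JG-98 group. The LOX call was lost without Empty JG-98 replicate 2 or NeuT JG-98 replicate 1, with total counts, and with only the 4 libraries compared. Over the alternatives their edgeR adjusted p reached 0.0588, 0.126 and 0.169. The list of collagen receptors holds 10 genes, of which DDR1, ITGA11, LAIR1 and GP6 had under 10 counts in every library. Those 4 were not tested, and their counts are not read as absence. Of the 6 receptors tested, 3 were higher in NeuT in both conditions and none lower, against 21.2% and 21.7% of all genes higher. They were ITGA2 with 1.14 and 1.47 (SE 0.22 each), ITGA1 with 0.54 and 0.56 (SE 0.13 each) and their partner ITGB1 with 0.40 and 0.64 (SE 0.051 and 0.052), with edgeR adjusted p of at most 0.013. ITGA2 lost its untreated call without Empty untreated replicate 1, Empty untreated replicate 2 or NeuT untreated replicate 1 (edgeR adjusted p 0.0683, 0.0734 and 0.0528, with 2.39e-17 at the lowest over the alternatives), and ITGA1 without Empty untreated replicate 2 (0.33, edgeR adjusted p 0.0844, range 3.88e-05 to 0.0844).

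Markers of other cell types also differed between the lines. Of the 6 fibroblast markers tested, 4 were higher and 1 lower in NeuT in both conditions, against 21.2% and 21.7% of all genes higher and 20.8% and 20% lower. Decorin (DCN), a proteoglycan of collagen fibrils, was at 0.197 to 0.285 RPKM in Empty and 4.97 to 6.18 RPKM in NeuT, and POSTN at 1.02 to 1.39 and 3.83 to 4.12 RPKM. FBLN1 went from 20.5 to 20.8 RPKM in Empty to 10.8 to 11.4 RPKM in NeuT. The summed level of the 10 was 32.3 to 34.0 RPKM in Empty and 35.0 to 36.2 RPKM in NeuT, while LUM, PDGFRA and THY1 had at most 4 counts. Endothelial markers summed to 1.64 to 2.35 RPKM in Empty and 1.29 to 1.535 RPKM in NeuT. Leukocyte markers, nearly all of it CD14, summed to 3.07 to 4.3 RPKM in Empty and 6.56 to 7.47 RPKM in NeuT. Of the 5 endothelial markers tested, 1 was higher and 1 lower in NeuT without JG-98, and 2 and 2 with it. Of the 2 leukocyte markers tested, 1 was higher and none lower in both conditions. The shares of all genes are those given above. Of the basal epithelial markers, 7 of 10 were higher in NeuT without JG-98 and 2 lower, among them EPCAM with 78.0 to 88.6 RPKM in Empty and 37.1 to 40.0 RPKM in NeuT. The part of these markers in the collagen differences was not tested.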

How the data were processed

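RNA of 8 MCF-10A libraries, captured on oligo(dT) beads per the labels' protocols, had been sequenced in 4 groups. The submitters' processing notes name Trim Galore 0.5.0, FastQC 0.11.7, HISAT2 2.1.0, SAMtools 1.9, featureCounts 1.6.3, limma and the build GRCh38. Strand setting and annotation release are not given in the sources used here. The authors deposited raw counts per gene, per the file headers, and 1 table per line with a log2 fold change, an adjusted p-value and a test score, of which the first 2 are printed. Column initials were matched to sample titles.

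The deposited counts went unchanged into edgeR 4.0.16 (R 4.3.3), with filterByExpr (17693 genes left, 21 of them collagen genes), TMM scaling, and a robust quasi-likelihood fit to all 8 libraries with a coefficient per group. The Benjamini-Hochberg adjustment ran over all genes tested, and called means under 0.05. RPKM used the deposited gene lengths and TMM-scaled sizes. The scripts were tested on simulated counts. Alternatives were RLE factors, total counts, other low-count filters, DESeq2 1.42.0, limma-voom (limma 3.58.1), no robust estimation, the replicate block, only the 4 libraries compared, a minimum log2 change of 1 and leaving out each library.

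The collagen genes and the gene lists were chosen with earlier results of these data known. Library values are printed for members with a mean of at least 50 counts, and changes with SE for called ones among these and for the 5 members with the highest RPKM. Outside this rule, and chosen after their values were seen, are the changes, intervals or adjusted p-values of COL13A1 and COL9A2, those of COL7A1, COL22A1, COL4A5, COL4A4, COL1A1 and COL5A2 where not called, and those of FKBP10. List genes are up to the 2 largest and 2 smallest called changes per list and comparison, with the same limit of 50 counts on the mean. Gene names covered 60261 of 60617 identifiers. Coordinates are those of the count table, 1-based, and 27 of the 44 members have the same ones in GENCODE 29.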

Additional observations from a re-analysis of the deposited data

How the results depend on the processing

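With a minimum log2 change of 1, the collagen genes called between the lines were 4 without JG-98, where 9.61% of all genes were called, and 5 with it, where 9.79% were. Without the low-count filter, 1 was called for JG-98 in Empty (282 of all genes, against 60 with the filter) and 1 for the interaction (138 of all genes, against 1). Leaving out 1 library at a time gave 0 to 1 calls for JG-98 in Empty, 0 to 3 for JG-98 in NeuT and 0 to 3 for the interaction, the highest of the last 2 without NeuT JG-98 replicate 1. Without that library the share of all genes called was 2.23% for JG-98 in Empty, 11.4% for JG-98 in NeuT and 4.16% for the interaction, and without NeuT JG-98 replicate 2 it was 2.16% for JG-98 in Empty. Scaled by total counts, the untreated line comparison called 4 higher and 5 lower in place of 4 and 3. All genes went the same way, from 3748 higher and 3675 lower to 3087 and 4505, as their median log2 difference moved from -0.016 to -0.084. The replicate numbers were not treated as a pairing, because deviations of same-numbered libraries correlated with r between -0.101 and 0.244. With the replicate block, 8 and 10 collagen genes were called between untreated and JG-98 lines (42.4% and 42.1% of all genes), and 0 for JG-98 in Empty, JG-98 in NeuT and the interaction. The block called COL7A1 between untreated lines (-0.22, edgeR adjusted p 0.0353, range 0.0198 to 0.40 over the alternatives). Total counts turned COL4A6 between untreated lines to -0.0127, and COL4A1 under JG-98 to -0.0649, as did limma-voom (-0.00578). Leaving out 1 library at a time, COL4A1 between JG-98 lines ran from -0.23 to 0.22, and COL17A1 with JG-98 in Empty from -0.0896 to 0.0315. With JG-98 in NeuT, COL17A1 ran from -0.0554 to 0.15, COL4A2 from -0.17 to 0.19, COL4A1 from -0.16 to 0.29 and COL4A6 from -0.0866 to 0.0104. For the interaction, COL17A1 ran from -0.0342 to 0.17, COL4A2 from -0.0276 to 0.33, COL4A1 from -0.0411 to 0.41, COL8A1 from -0.0599 to 0.0599 and COL4A6 from -0.0204 to 0.12. Of 1396 values of single genes under the alternatives, 1288 kept their direction and side of the threshold, 65 lost a call, 23 gained one and 20 changed sign.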
